A study of Mus musculus with 2 samples.

Results

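Genes of motile cilia were examined in lung cells sorted by an SPC/GFP reporter and by EpCAM, an epithelial surface protein. A gene was a member when its platform symbol began with Cfap, Dnah, Dnai, Rsph or Tekt followed by a digit, or was Foxj1, Tppp3, Ccdc39, Ccdc40, Hydin, Spag6, Dynlrb2 or Mcidas, and this gave 57 of 19505 genes, each with 1 array feature. One sample came from mice exposed to smoke for 3 months and the other, the control, from mice exposed to air for 3 months, each on 1 Clariom S Mouse array. Both samples shared the sort and the reporter, whose name points to surfactant protein C, which alveolar type 2 cells secrete. Strain, sex, age, the reporter's construction and the number of animals in each sample are not stated in the labels.

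Motile cilia are the beating hairs of ciliated airway cells, which move mucus out of the lung, and alveolar type 2 cells are not known to carry them. Each is built on an axoneme, a ring of doublet microtubules around a central pair. Dynein arms on the doublets slide them past each other, and radial spokes and the central pair regulate the beat. The regulators FOXJ1, MCIDAS and the RFX family switch the genes on.

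All values are deposited log2 signals on an unstated scale, read here as log2, and differences are smoke minus air. With 1 array per group no difference has a replicate check or a p-value, the number of arrays limits the precision, and each value compares these 2 samples and not the conditions. The array medians were 4.53 for smoke and 4.61 for air. Differences were counted only for genes whose brighter array reached 4.57, the median of all probe values, since lower signals carry little information on a difference. Among genes of similar level, the robust SD of the differences (a scaled median absolute deviation) was between 0.39 and 0.50 for the members above this filter. In a bulk sample, fewer cells of a type and less RNA per cell cannot be told apart.

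Of the 57 motile cilia genes, 25 reached the level filter (43.9%), against 10419 of 19505 genes in all (53.4%). Among these 25, 4 were higher by 2-fold or more in the smoke sample, 1 was lower by 2-fold or more and 20 lay within 2-fold. Among all genes that reached the filter, 3.94% were higher by 2-fold or more and 2.48% were lower by that much, and weighted to the members' own level bins these shares were 4.35% and 3.24%. The members' shares were 16% and 4%, of which the higher one includes Cfap65, a gene that reached the filter by its smoke signal alone. With the filter on the mean of both arrays, 3 of 22 members (13.6%) were higher past 2-fold and 1 was lower, against 3.71% and 1.95% of all genes. The median difference was 0.06 over the 25 members and 0.06 over all genes above the filter. Of the members 14 were higher and 11 lower, so 56.0% were higher, against 54.3% of all genes above the filter. The group thus did not lie to one side of zero; its middle quartiles ran from -0.31 to 0.37, against -0.26 to 0.39 for all genes above the filter.

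**Figure D1:**
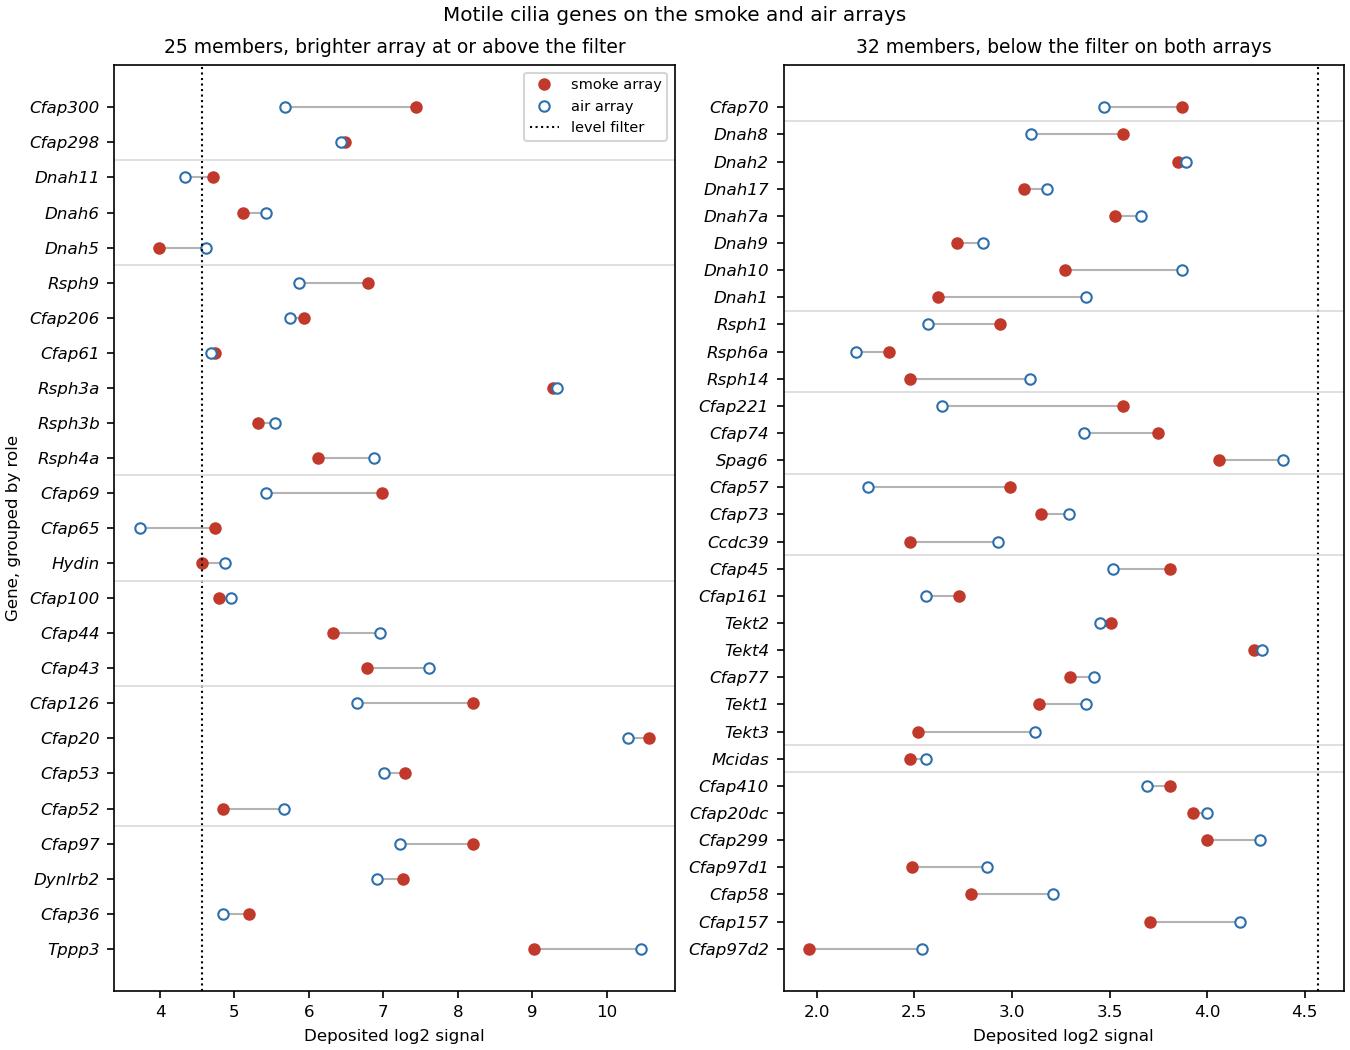
Deposited log2 signal of each motile cilia gene on the smoke array (filled red) and the air array (open blue), with lines between role groups and the level filter of 4.57 dotted; 25 genes with the brighter array at or above the filter are on the left and 32 on the right. Cfap300, Cfap69, Cfap126 and Cfap65 stand apart on the smoke side and Tppp3 on the air side, and each panel has its own signal axis.

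Cfap300, whose product takes part in the assembly of dynein arms before they enter the cilium, had a log2 signal of 7.44 in the smoke sample, against 5.68 in the air sample. This was the highest difference among the members above the filter, 1.76 on the log2 scale or 3.39-fold. Cfap126 (Flattop), a protein of the doublet lumen that also acts in positioning basal bodies, stood at 8.21 in smoke and 6.65 in air, 2.95-fold higher. Cfap69, a central pair protein that sperm flagella also need, stood at 6.98 in smoke and 5.42 in air, also 2.95-fold higher. These 3 genes were above the filter on both arrays, and their differences lay beyond 2 robust SDs of genes of like level. Cfap65, a central pair protein known for its role in sperm flagella, stood at 4.74 in smoke and 3.73 in air. Its air signal was below the filter, its difference of 1.01 was at the threshold, and with an offset of 16 added on the linear scale it was 0.55.

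Tppp3, a tubulin-bundling protein abundant in ciliated airway cells and present in some other cell types, was the 1 member at least 2-fold lower. It stood at 9.02 in the smoke sample and 10.46 in the air sample, 2.71-fold lower, and with the offset its difference was -1.41. In all, 6 of the 25 members (24%) lay beyond 2 robust SDs of genes of like level, against 7.75% of all genes above the filter. These were the 5 genes past 2-fold and Cfap43, and Cfap65 among them reached the filter by its smoke signal alone. The share over all genes was not weighted to the members' level bins. Of the 6, 4 were higher and 2 lower; the shares describe these 2 arrays and have no test.

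**Figure D2:**
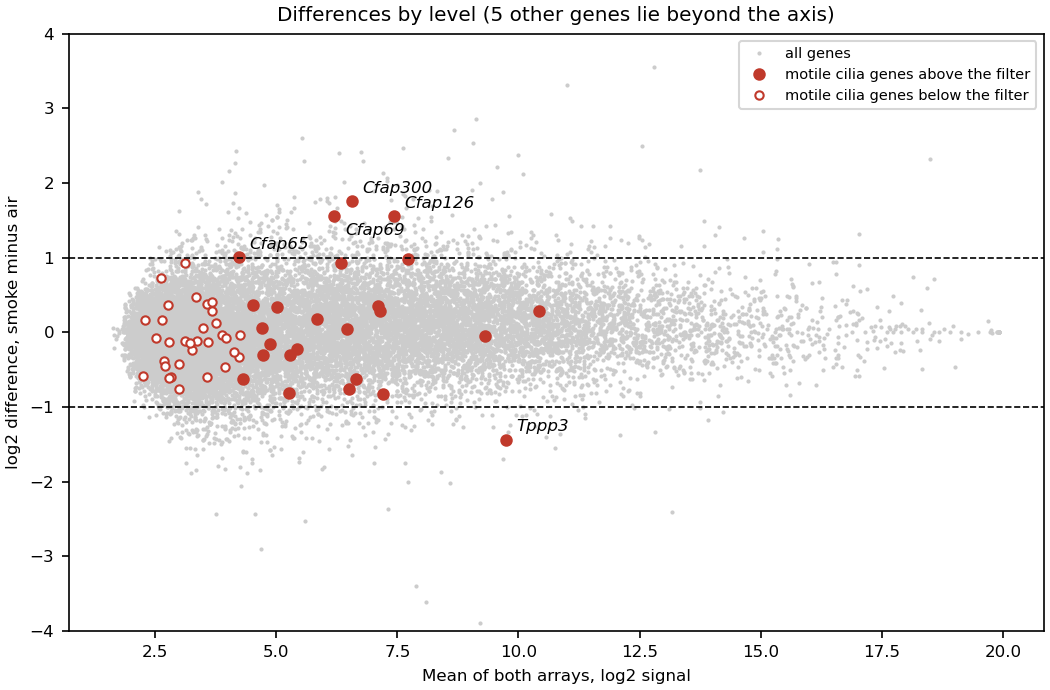
Difference in log2 signal, smoke minus air, against the mean of both arrays for all genes (grey), motile cilia genes above the level filter (filled red) and below it (open red); dashed lines mark 2-fold. The 5 named members lie outside the lines, and the other members lie within the grey cloud; 5 genes that are not members fall beyond the axis.

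Promoter sequences were compared because ciliary genes share 2 classes of regulator, forkhead factors such as FOXJ1 and RFX factors. RefSeq windows of the GRCm38.p6 build were available for 48 of the 57 members, as 55 windows, and the 250 bases before each annotated start were searched on both strands. The forkhead core GTAAACA (read as TGTTTAC on the other strand) and the RFX half-site GTTGCC (read as GGCAAC on the other strand) were searched as exact letters, and the printed motifs did not overlap each other. The RFX half-site was present for 17 of 48 members (35.4%) and for 3195 of 27025 genes in the whole table (11.8%, members included). The forkhead core was present for 4 of 48 members (8.33%) and for 956 of 27025 genes (3.54%). Per window, the half-site was in 34.5% of the members' windows and in 10.4% of all windows. A match describes letters and is no evidence of binding.

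Windows of 5 members are shown. Of these, 3 are the members at least 2-fold higher that were above the filter on both arrays. The 2 others hold the half-site more than once, and of them Cfap298 had a difference of 0.05 and Cfap44 of -0.63. Each window is written from its 5′ end along the gene's own strand, ending 1 base before the annotated start, with RFX half-sites in capitals.
Cfap300 (chr9:8042876-8043125, minus strand): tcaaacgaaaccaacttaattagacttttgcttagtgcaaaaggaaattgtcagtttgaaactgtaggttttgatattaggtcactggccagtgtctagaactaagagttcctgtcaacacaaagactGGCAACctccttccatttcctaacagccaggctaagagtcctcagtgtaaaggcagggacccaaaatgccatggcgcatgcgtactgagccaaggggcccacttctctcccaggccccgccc
Cfap126 (chr1:171113736-171113985, plus strand): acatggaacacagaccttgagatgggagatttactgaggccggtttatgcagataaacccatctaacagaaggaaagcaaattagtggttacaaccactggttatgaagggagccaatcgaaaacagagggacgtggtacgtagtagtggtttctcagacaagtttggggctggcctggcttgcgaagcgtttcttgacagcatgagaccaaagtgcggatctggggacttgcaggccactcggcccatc
Cfap69 (chr5:5664233-5664482, minus strand): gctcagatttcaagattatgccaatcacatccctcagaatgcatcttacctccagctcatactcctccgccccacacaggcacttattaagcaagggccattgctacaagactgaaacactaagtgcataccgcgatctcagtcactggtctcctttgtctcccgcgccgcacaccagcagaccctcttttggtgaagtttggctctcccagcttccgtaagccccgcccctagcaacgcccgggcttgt
Cfap298 (chr16:90934850-90935099, minus strand): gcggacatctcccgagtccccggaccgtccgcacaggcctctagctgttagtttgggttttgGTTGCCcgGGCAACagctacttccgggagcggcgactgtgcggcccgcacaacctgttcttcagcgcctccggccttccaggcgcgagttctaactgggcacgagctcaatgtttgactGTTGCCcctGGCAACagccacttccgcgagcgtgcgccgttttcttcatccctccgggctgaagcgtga
Cfap44 (chr16:44394549-44394798, plus strand): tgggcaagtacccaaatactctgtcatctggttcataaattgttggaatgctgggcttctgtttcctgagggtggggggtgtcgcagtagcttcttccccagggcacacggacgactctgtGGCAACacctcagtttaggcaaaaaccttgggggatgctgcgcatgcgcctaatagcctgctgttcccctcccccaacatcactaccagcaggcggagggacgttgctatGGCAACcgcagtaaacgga

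Cfap300 held 1 half-site, beginning 122 bases before the start. The first of the 3 windows listed for Cfap126 and the window of Cfap69 held neither motif as searched. Cfap298 held 4 half-sites in 2 inverted pairs, with first bases 188 and 180 and again 69 and 60 bases before the start. Cfap44 held 2, beginning 129 and 19 bases before it. Among members with a half-site, 6 were above the level filter, with a median difference of 0.17 (from -0.63 to 1.76); among members with a window and no half-site, 14 were, with a median of 0.005 (from -0.83 to 1.56). The ranges overlapped over most of their length, and no test was made.

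Dynein arm genes other than Cfap300 were mostly dim. Of the 10 axonemal heavy chains, which are the motors of the arms, 3 were above the filter and none of these 3 was past 2-fold. Dnah6, an inner arm chain, stood at 5.12 in smoke and 5.43 in air, a difference of -0.31. Dnah5, the outer arm chain best known from primary ciliary dyskinesia, was above the filter in air alone, at 3.99 in smoke and 4.62 in air. Dnah11, another outer arm chain, was above it in smoke alone, at 4.71 in smoke and 4.34 in air. The outer arm chains thus differed in sign close to the filter. Cfap298, a second assembly gene, stood at 6.48 in smoke and 6.43 in air, in contrast to Cfap300. Intermediate chains were listed under the older symbols Dnaic1 and Dnaic2 and so fell outside the members: Dnaic1 stood at 4.13 in smoke and 4.22 in air, and Dnaic2 at 2.54 in smoke and 3.24 in air, both under the filter.

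Radial spoke genes had the most members above the filter of any role group, 6 of 9, with 3 higher, 3 lower and none of the 6 past 2-fold. Rsph9 and Rsph4a, both proteins of the spoke head, differed in opposite directions. Rsph9 stood at 6.80 in smoke and 5.87 in air, a difference of 0.93, and Rsph4a at 6.12 in smoke and 6.88 in air, a difference of -0.76. Cfap206 and Cfap61, proteins at the spoke base, differed by 0.18 and 0.06. Rsph3a (9.28 in smoke and 9.33 in air) and Rsph3b (5.32 in smoke and 5.54 in air) are closely related copies, whose probes may not separate them.

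Central pair genes had 3 of 6 members above the filter, of which Cfap69 and Cfap65 were the ones past 2-fold. Hydin, a large projection protein of the central pair, stood at 4.56 in smoke and 4.87 in air, a difference of -0.31. Spag6, another central pair gene with a closely related copy, Spag6l, did not reach the filter on either array, at 4.06 in smoke and 4.39 in air. The ruler, tether and inner arm regulators had 3 of 6 members above the filter, and all 3 were lower without passing 2-fold. Cfap43 and Cfap44, which form the tether of an inner dynein, stood at 6.78 and 6.33 in smoke and at 7.61 and 6.96 in air, which gave differences of -0.83 for Cfap43 and -0.63 for Cfap44. Cfap100, an inner arm regulator, differed by -0.16. Ccdc39, part of the ruler that sets the spacing of arms and spokes, stayed under the filter on each array, at 2.48 in smoke and 2.93 in air.

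Among proteins of the doublets, 4 of 11 members were above the filter. Cfap126 was the 1 past 2-fold. Cfap52, a protein inside the doublets, stood at 4.85 in smoke and 5.67 in air, a difference of -0.82. Cfap53, an inner doublet protein that also acts in left-right patterning, and Cfap20, at the inner junction of the doublet and expressed in many cell types, differed by 0.28 and 0.29. All 4 measured tektins, filament proteins of the doublets, were below the filter on both arrays. Of the remaining members, Cfap97 was just inside 2-fold, at 8.21 in smoke and 7.23 in air, a difference of 0.98. Dynlrb2, a dynein light chain abundant in ciliated cells, stood at 7.27 in smoke and 6.92 in air, and Cfap36 differed by 0.34.

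The 32 members below the filter on both arrays had signals between 1.96 and 4.39 and differences between -0.76 and 0.93, so none of these 32 was past 2-fold. Mcidas, which starts the multiciliated program, was among them at 2.48 in smoke and 2.56 in air. Over all 57 members the median difference was -0.07, against -0.02 for all genes, with 25 members higher and 32 lower. That split was not counted over all genes without the filter. The filter itself decided 4 of the 25 members: Cfap65 and Dnah11 passed by their smoke signals alone and Dnah5 and Hydin by their air signals alone. Of the 69 symbols of this pattern in the RefSeq table, 12, among them Foxj1 and Ccdc40, were not analysed here.

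**Figure D3:**
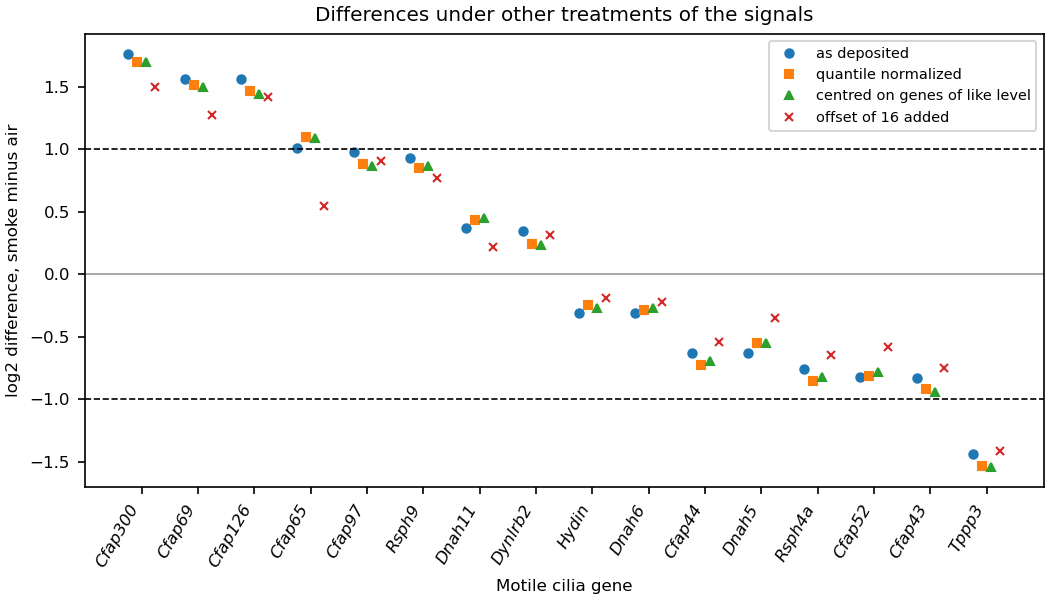
Difference in log2 signal, smoke minus air, of the 8 highest and 8 lowest motile cilia genes above the level filter, as deposited, after quantile normalization, centred on genes of like level, and with 16 added to the linear signal; dashed lines mark 2-fold. All 16 genes keep their sign, and Cfap65 is the 1 gene that crosses the 2-fold line, to 0.55 with the offset.

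Genes that build or regulate motile cilia outside the members were described by fixed lists. Of 23 measured multiciliogenesis regulators, 11 were above the filter with a median of 0.01 and none of the 11 past 2-fold. Rfx3, an RFX factor of ciliary genes, was the highest of them, at 7.26 in smoke and 6.99 in air, and E2f4, which acts with MCIDAS, the lowest, at 7.54 in smoke and 8.06 in air. Gmnc, which acts upstream of Mcidas, stayed under the filter in both samples, at 3.02 in smoke and 4.25 in air, and is named after its value was seen. Of 15 dynein arm assembly factors, 5 were above the filter, with none of the 5 past 2-fold; Wdr92 differed by 0.62 and Lrrc6 by -0.50. Of 18 docking and light chain genes, 10 were above it, again none of the 10 past 2-fold, with Dnal1, an outer arm light chain, at 0.76 and Dnali1, an inner arm light chain, at -0.32.

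Of 20 genes in the list named for the nexin-dynein complex and central pair, 3 were above the filter and all 3 were higher within 2-fold. These were Nme5 at 0.79, Drc1 at 0.50 and Gas8 at 0.38. Nme5, a radial spoke gene that the list includes, was below the filter in air (5.09 in smoke and 4.30 in air). Of 16 further microtubule inner proteins, 6 were above the filter. Enkur, a calmodulin-binding protein of the doublets, was the 1 past 2-fold, at 6.03 in smoke and 4.64 in air, 2.62-fold higher; with the offset its difference was 0.99, just under 2-fold. Spag8 was among the lowest of the 6, at -0.39.

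Intraflagellar transport and BBSome genes, which cells with a primary cilium also use, were nearly all measurable. Of 37, 35 were above the filter with a median of 0.18, with 1 higher past 2-fold and 2 lower past it. Ift122, of the retrograde transport complex, stood at 5.42 in smoke and 3.96 in air. Dync2li1, a light intermediate chain of the retrograde motor, stood at 7.18 in smoke and 8.28 in air, and Hspb11 (also called Ift25) at 4.35 in smoke and 5.39 in air. Ift122 reached the filter by its smoke signal alone and Hspb11 by its air signal alone. With the offset, Ift122 and Hspb11 differed by 0.90 and -0.67, inside 2-fold, while Dync2li1 differed by -1.02. The primary cilium and transition zone list had 23 of 33 genes above the filter, a median of -0.01 and none of the 23 past 2-fold, with Cc2d2a, a transition zone gene, at 0.85 and Arl3, a ciliary cargo GTPase, at -0.58.

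Markers of cell types were read beside the members. Alveolar type 2 genes were at high signals in both samples, all 22 above the filter level on each array, and 8, Sftpc included, at the upper limit of 19.93 on both. Of the 14 below that limit, 1 was past 2-fold, Chil1 with a difference of 2.32, and the median was 0.045. Rab27a was the lowest, at -0.50. Some of the 14 lay close to the limit, such as Etv5 (19.91 in smoke and 19.91 in air) and Napsa (19.76 in smoke and 19.61 in air). Such signals leave little room for a rise. Of 35 other airway ciliated cell markers, 14 were above the filter, 5 of these higher and 9 lower, with a median of -0.23. Aldh3b1 and Tctn1, which many cell types express, were 2.28-fold and 2.06-fold higher. Tctn1 lay inside 2-fold after quantile normalization (0.93), after centring on genes of like level (0.925) and with the offset (0.99). Zbbx, which reached the filter by its air signal alone, stood at 4.04 in smoke and 5.39 in air. Its difference of -1.35 was -0.84 with the offset. The summed linear signal of the ciliated list was 37690 in smoke and 48145 in air, and Ezr, a membrane linker of many epithelia, carried most of it. The other 34 genes, a sum added after the data were seen, gave 4001 in smoke and 3383 in air, the opposite direction. That sum still holds the higher smoke signals of Aldh3b1 (9.63 in smoke and 8.44 in air) and Tctn1 (8.91 in smoke and 7.87 in air). Its direction thus depends on which broadly expressed genes are kept, and no sum without Aldh3b1 and Tctn1 was made. Foxj1, the defining marker of ciliated cells, was not analysed here.

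**Figure D4:**
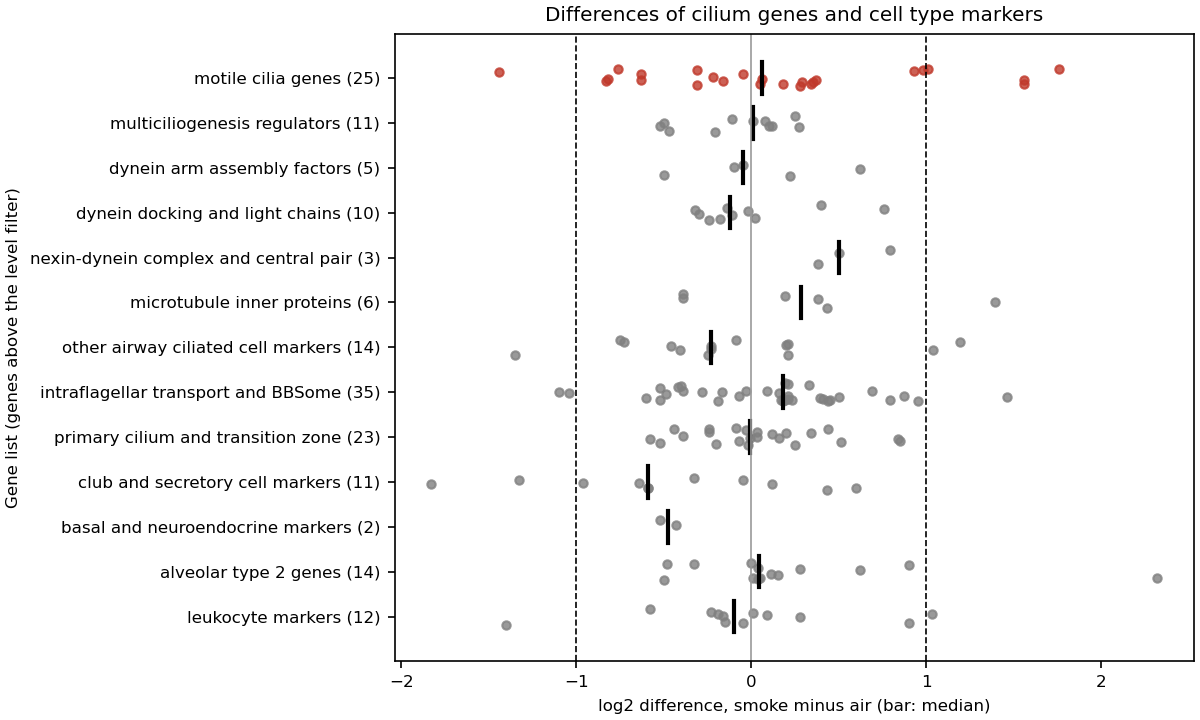
Difference in log2 signal, smoke minus air, of each gene above the level filter in the motile cilia group (red) and in 12 other lists (grey), with the number of genes in parentheses, the median as a bar and dashed lines at 2-fold; vertical scatter within a row has no meaning. The motile cilia genes run from -1.44 to 1.76 around a median of 0.06, and the club and secretory markers have the lowest median, -0.59.

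Club and secretory markers had 11 of 21 genes above the filter and below the upper limit, 3 higher and 8 lower, with a median of -0.59. With the offset that median was -0.42, and without the level filter the list's median was -0.25. Scgb3a1, a secretoglobin of airway cells, stood at 5.02 in smoke and 6.85 in air, and Cyp4b1, a cytochrome P450 of club cells, at 12.16 in smoke and 13.49 in air. The 3 higher genes were Scgb3a2, another secretoglobin, with a difference of 0.60, Hp, with 0.43, and Gabrp, with 0.12. Scgb1a1, which defines club cells, reached the upper limit of both arrays. The basal cell markers Krt5 (2.68 in smoke and 2.50 in air) and Trp63 (3.39 in smoke and 2.57 in air) were below the filter. The 2 of 18 basal and neuroendocrine markers above it were both lower within 2-fold, Snai2 by a difference of -0.52 and Syp by one of -0.43. Leukocyte markers had 12 of 21 genes above the filter, 5 higher and 7 lower, with a median of -0.10. Of these, Cd3d, a T cell receptor subunit, stood at 4.66 in smoke and 3.63 in air, so it reached the filter in smoke alone. Its difference of 1.03 was 0.54 with the offset. Cd3e, above the filter on both arrays, stood at 6.73 in smoke and 6.64 in air, a difference of 0.09. Chil3, a chitinase-like macrophage protein, stood at 9.87 in smoke and 11.27 in air, a difference of -1.40, and Ptprc, the general leukocyte marker, at 7.59 in smoke and 7.64 in air. The part of airway cells in the differences of the motile cilia genes was not tested.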

How the data were processed

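The authors deposited 1 log2 signal per platform identifier and array; the log2 scale was read from the values (1.55 to 19.93, 2 decimals), because no source used here gives the scale, background correction or normalization. Per the submitters' processing notes, Transcriptome Analysis Console was used, without a stated version. Per the labels' protocols, total RNA was made into biotinylated single-stranded cDNA and hybridised to 1 array per group.

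Probes were named by the platform annotation and averaged per gene. The 16 genes that reached the upper limit in both samples were left out of counts. Level bins were 10 equal groups of mean signal, and background shares were weighted to the members' bins. With 1 array per group no test was possible. The procedure was tested on simulated data with planted changes larger than the difference of any member, so that test does not cover changes of the members' size. Members and lists were chosen with earlier results of these data known. Named genes are the members past 2-fold, the 8 highest and 8 lowest above the filter, the members given by name in the definition, and the extremes of each list; further genes were named after their values were seen. Alternatives covered filters, thresholds, normalization, an offset and the membership. Python 3.11.15, numpy 2.4.6, pandas 2.3.3 and matplotlib 3.10.9 were used.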

Additional observations from a re-analysis of the deposited data

How the results depend on the processing

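The counts of 4 motile cilia genes higher and 1 lower were the same without a level filter, under quantile normalization, after centring on genes of like level and with 3 members added under older symbols. Without a filter all 57 members entered, their median was -0.07, and 407 genes in all were at least 2-fold lower, against 258 with it. A filter at the 75th percentile left 6 members and 1 of the higher genes. At 1.5-fold 6 members were higher and 6 lower, and at 3-fold 1 was higher and 0 lower. Shares over all genes are not given for that filter or for these thresholds. Whether these member counts are unusual therefore cannot be read. With the mean of both arrays as the filter, or with the offset of 16, 3 were higher, as Cfap65 dropped out. Leaving out 5 broadly expressed members, an alternative chosen after seeing the data, gave a median of -0.05, so the sign of the group's median is not settled. Differences of named genes and medians of other lists made 58 results. Of these, 0 moved by their margin under quantile normalization or centring and 7 moved with the offset. The margin was the robust SD of genes of like level for a gene and 0.1 for a median. Centring shifts a gene by its bin's median, which lay between -0.12 and 0.115, while the smallest robust SD of any bin was 0.30. No named gene could thus reach its margin under centring, so for genes that 0 was fixed in advance. No paired analysis was possible because each group has 1 array. Signals near the filter limit what can be read for most members.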
